A study of Glycine max with 42 samples.

Results

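Soybean leaves make 3 related groups of flavonoids from a common precursor: isoflavones, flavonols and anthocyanins. The genes described here encode enzymes of these branches, 10 genes in all, set against 39557 gene IDs in the deposited tables. They were listed by ID and name for their place in the pathway, with no threshold on a measured value: IFS1 (Glyma.07G202300), IFS2 (Glyma.13G173500), HID (Glyma.01G239600), CHI1A (Glyma.20G241500), F3'H of the T locus (Glyma.06G202300), F3'5'H of the W1 locus (Glyma.13G072100), DFR1 (Glyma.14G072700), DFR2 (Glyma.17G252200), ANS2 (Glyma.01G214200) and ANS3 (Glyma.11G027700). Of these, DFR1 and ANS3 were not analysed here. The files do not pair IDs with names. In the RefSeq gene table for assembly Glycine_max_v4.0, entries for all 10 names lie on the chromosome that the listed ID carries, but IFS1 and IFS2 are given there as synonyms of each other, as is ANS3 of ANS2.

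Chalcone isomerase closes chalcones into flavanones, from which the branches part. Isoflavone synthase moves the aryl ring of the flavanone and 2-hydroxyisoflavanone dehydratase completes the isoflavone, a class that legumes use in defence and in signalling to nodule bacteria. In the other direction, the B-ring hydroxylases F3'H and F3'5'H set which flavonols and anthocyanins are made, and dihydroflavonol reductase and anthocyanidin synthase lead to the anthocyanin pigments.

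RNA was sequenced from trifoliate leaves of Glycine max in 42 libraries, 14 groups of 3, to follow leaves whose seed sink had been limited, from flowering (stage R2) until leaf senescence began. Williams 82, a soybean cultivar, had 27 libraries: depodded plants, from which pods were removed, at days 45, 54, 64 and 76 after planting, controls on the same days, and an initial group at day 38. Line T295H had 15 libraries: sterile plants, in which the sink was limited genetically, at days 35 and 63, controls on the same days, and an initial group at day 28. No allele is named for the sterile plants, and the group label of the initial leaves gives their time point only. Nothing states that libraries of 1 group were from different plants; p-values therefore reflect the spread among libraries alone, which may be technical.

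Values are normalised counts (gene counts over 1 size factor per library, as deposited), with totals of 6663477 to 13166094 recovered counts per Williams 82 library and 5471456 to 11877733 per T295H library. Differences are log2 changes of (normalised count + 1) from limma, fitted over all genes of a line, with an adjusted p under 0.05 as the threshold. Among depodded libraries of days 64 and 76, the 10 most abundant genes held 10.6% to 17.8% of counts, against 4.76% to 6.89% in controls of those days; in sterile plants of day 63 the share was 6.31% to 7.46%, against 4.22% to 5.07% in controls. The part of this shift in the results below was not tested. In T295H initial replicate 2 the share was 41.3%, against at most 9.55% in the other T295H libraries. Labels and titles disagree on the late depodded groups. Titles of the depodded libraries labelled day 64 have sampling number 5, as in day 76 controls, and titles of those labelled day 76 have number 4, as in day 64 controls; days below are those of the label, and the average over both days does not depend on this. The lists of other pathway genes and of tissue markers rest on gene names that could not be matched to these IDs, so the leaf label was not checked against markers and no other flavonoid gene is described. Levels are not compared between genes, since no gene lengths were used. Whether the ranges of 2 groups overlap is given for the members only. The share of all genes without overlap was not computed, so a lack of overlap is not read as particular to these genes.

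Both ways of limiting the sink went with differences from controls in IFS2, HID, CHI1A and F3'H. These were called in depodded leaves labelled day 76 and in sterile leaves of day 63. In depodded leaves labelled day 64 limma called 0 of 5 members, against 35.8% of all genes. In the last controls of both lines the isoflavone genes IFS2 and HID and the shared gene CHI1A stood above their levels in initial leaves, and F3'H stood below. Leaves of depodded plants labelled day 76 and of sterile plants at day 63 differed from those controls in the opposite direction in all 4 genes. The same control libraries enter both comparisons, so the opposite signs are not independent results. IFS1 did not pass limma's test against controls in either line. By edgeR and DESeq2 it was called in depodded leaves labelled day 76 and in the average over both late days. The anthocyanin genes that were measured had few or no counts. Across all groups of a line, each of the 5 genes with enough counts to be tested (IFS1, IFS2, HID, CHI1A and F3'H, out of 7 with values in Williams 82 and 8 in T295H) passed limma's moderated F-test in both lines, as did 78.5% of all genes tested in Williams 82 and 70.5% in T295H.

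At the early samplings no member passed the test. In depodded leaves, limma called 0 of 5 genes at day 45, where 0.0103% of all genes were called, and 0 of 5 at day 54, where 0.88% were. In sterile leaves of day 35 it called 0 of 5, against 0.177% of all genes. At an unadjusted p under 0.05 the counts were 0 at day 45, 1 at day 54 (IFS2) and 0 in sterile leaves, and edgeR and DESeq2 called 0 in all 3 comparisons. The largest of these changes were those of IFS2 at day 54 (log2 change -1.47, SE 0.66, limma adjusted p 0.28) and of IFS1 at days 45 and 54 (-1.08 and -1.07, SE 0.63 each, adjusted p 0.57 and 0.43).

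In depodded leaves labelled day 76, 3 of 5 genes were lower (IFS2, HID and CHI1A) and 1 was higher (F3'H) than in controls of day 76. Of all genes, 22.2% were lower and 24.2% higher, so calls as such were common. The median log2 change was -1.68 over the 5 members, the value of CHI1A, and 0.05 over all genes. The median over all genes lay between -0.03 and 0.05 in every comparison, so it does not measure how far these genes stand out. In depodded leaves labelled day 64, limma called 0 of 5 members although 35.8% of all genes were called, with 0 members at an unadjusted p under 0.05 and 0 by edgeR or DESeq2. Averaged over days 64 and 76, the same 3 genes were lower than in controls and F3'H was higher, against 15.1% and 17.9% of all genes. The difference between the late and the early depodding effect was itself tested: limma called 0 of 5 members (5.51% of all genes), 2 reached an unadjusted p under 0.05 (CHI1A and F3'H), edgeR called 0 and DESeq2 called 1, F3'H. A larger depodding effect late than early was therefore not shown for any member by limma.

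The days of the depodded groups matter for the size of these values. Set by title number, the depodded libraries with number 5 against controls of day 76 still had 3 genes lower (IFS2, HID and CHI1A, against 12.5% of all genes) and F3'H higher (15.8% of all genes). With number 4 against controls of day 64, F3'H alone was higher (log2 change 1.49, SE 0.49, limma adjusted p 0.049, against 7.08% of all genes) and no member was lower (5.93% of all genes). That single call was lost when any 1 of the 6 libraries was left out. The changes with number 4 were -1.42 for IFS2 (adjusted p 0.16), -0.54 for HID (0.53), -0.30 for CHI1A (0.63) and -0.62 for IFS1 (0.55).

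In sterile leaves of day 63, the same 3 genes were lower than in controls of day 63 (as were 23.6% of all genes). F3'H was higher than in those controls (as were 26.6% of all genes). The median log2 change was -1.18 over the 5 members, the value of CHI1A, and 0.02 over all genes. The difference between the sterility effects at days 63 and 35 passed the test for HID, which was more negative at day 63 (12% of all genes), and for F3'H, which was more positive (15.1% of all genes). For IFS2 and CHI1A it did not pass, with limma adjusted p-values of 0.052 and 0.077, but both were called without control replicate 2 or without sterile replicate 3 of day 63 (adjusted p down to 0.018 and 0.017). The plot of log2 changes by comparison shows all of these values with their errors.

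IFS2 encodes isoflavone synthase, the enzyme that commits a flavanone to the isoflavone branch. In Williams 82 controls of day 76 its normalised count was 8121, 1252 and 1360, against 87.3, 343 and 173 in initial leaves (log2 change 3.79, SE 0.66, limma adjusted p 6.8e-05). All 3 late controls were above all initial libraries, and above every other Williams 82 library. Replicate 1 of the day 76 controls was far above its group mates, and the group mean of 3578 was 1306 without it. In earlier controls the means were 182 ± 73 at day 45, 214 ± 21 at day 54 and 263 ± 148 at day 64 (SD, n = 3 each), and the step that passed the test was that to day 76 against day 64 (log2 change 3.32, SE 0.66, adjusted p 0.00054).

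Depodded leaves labelled day 76 had normalised counts of IFS2 of 57.5, 60.4 and 199, against 8121, 1252 and 1360 in controls. The groups did not overlap, and the log2 change was -4.75 (SE 0.66, limma adjusted p 6.1e-06), or -3.87 without control replicate 1. The depodded mean of 105 was 58.9 without replicate 3. At label day 64 the depodded libraries had 282, 487 and 483, against 433, 167 and 189 in controls, and the ranges overlapped (log2 change 0.76, SE 0.66, adjusted p 0.39). Averaged over both days IFS2 was lower by a log2 change of -1.99 (SE 0.47, adjusted p 0.0022). With days set by title number, the change against day 76 controls was -2.56 (SE 0.66, adjusted p 0.0052), and without control replicate 1 it was -1.69 and no longer called (adjusted p 0.060).

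In T295H, IFS2 gave a pattern of the same form. Sterile leaves of day 63 had normalised counts of 153, 153 and 478, against 3232, 938 and 2953 in controls. The groups did not overlap, with a log2 change of -3.21 (SE 0.60, limma adjusted p 0.00043). The sterile mean of 261 was 153 without replicate 3. At day 35 the sterile libraries had 55.5, 32.2 and 49.4, against 92.4, 103 and 57.9 in controls, a difference without overlap that did not pass the test (log2 change -0.87, SE 0.60, adjusted p 0.58). Controls of day 63 were above initial leaves, which had 34.8, 38.6 and 174 (log2 change 5.05, SE 0.60, adjusted p 3e-06, or 5.79 without initial replicate 3), and above controls of day 35 (log2 change 4.64, SE 0.60, adjusted p 8.6e-06).

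HID, the dehydratase that acts after isoflavone synthase, followed IFS2 closely. Its normalised count was 108, 141 and 132 in depodded leaves labelled day 76, against 4127, 661 and 979 in controls of day 76. Every depodded library was below every control (log2 change -3.45, SE 0.53, limma adjusted p 2e-05, or -2.66 without control replicate 1). At label day 64 the depodded libraries had 236, 283 and 315, against 196, 119 and 268 in controls, and the ranges overlapped (log2 change 0.58, SE 0.53, adjusted p 0.42). The average over both days was -1.43 (SE 0.37, adjusted p 0.0052), and by title number the change against day 76 controls was -2.33 (SE 0.53, adjusted p 0.0020), or -1.54 without control replicate 1.

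Sterile leaves of day 63 had 116, 159 and 336 normalised counts of HID, against 2367, 1110 and 1850 in controls. The groups did not overlap, and the log2 change of -3.20 (SE 0.39, limma adjusted p 8.7e-06) had the smallest adjusted p of the sterility effects among the members. At day 35 sterile libraries had 161, 114 and 133, against 173, 158 and 89.1 in controls (log2 change 0.0037, SE 0.39, unadjusted p 0.99). The difference between both effects was -3.20 (SE 0.55, adjusted p 0.00059) and was called whichever of the 12 libraries was left out. With age, HID was higher in day 76 controls of Williams 82 than in their initial leaves, which had 71.4, 98.8 and 161 (log2 change 3.72, SE 0.53, adjusted p 5.8e-06, or 2.93 without control replicate 1). In T295H it was higher in day 63 controls than in initial leaves, which had 74.6, 142 and 151 (log2 change 3.85, SE 0.39, adjusted p 5.5e-07).

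IFS1, the other isoflavone synthase gene, gave fewer calls than IFS2. In Williams 82 it had 110, 123 and 101 normalised counts in depodded leaves labelled day 76, against 1340, 257 and 91.0 in controls. The ranges overlapped, since control replicate 3 was below all 3 depodded libraries (log2 change -1.50, SE 0.63, limma adjusted p 0.054). The value was -0.46 without control replicate 1 and -2.39 without control replicate 3, when it was called (adjusted p 0.0022); edgeR and DESeq2 called it with all libraries. Averaged over both late days the change was -0.90 (SE 0.44, limma adjusted p 0.12), though edgeR and DESeq2 called IFS1 in that average too. By title number the change was -1.18 against day 76 controls (SE 0.63, limma adjusted p 0.17). Controls of day 76 did not differ by the test from initial leaves, which had 393, 122 and 334 (log2 change 0.32, SE 0.63, adjusted p 0.71). The mean of the day 76 controls was 563, or 174 without replicate 1, against 283 ± 142 in initial leaves (SD, n = 3).

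At day 54 the depodded libraries had 51.6, 73.6 and 60.9 normalised counts of IFS1, against 130, 92.2 and 181 in controls. The ranges did not overlap but the change did not pass the test, as given above. At day 45 they had 84.9, 88.8 and 51.2, against 185, 235 and 84.8 in controls, with 1 control library inside the depodded range. Depodded leaves labelled day 64 had 77.4, 230 and 150, against 141, 176 and 202 in controls (log2 change -0.30, SE 0.63, limma adjusted p 0.74).

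In T295H, IFS1 was higher in day 63 controls, with 575, 109 and 393 normalised counts, than in initial leaves, with 12.4, 0 and 66.7. The log2 change was 4.92 (SE 1.01, limma adjusted p 0.00055) and depended on the initial libraries: it was 3.28 without initial replicate 2, 6.32 without initial replicate 3 and 3.41 with a pseudocount of 5. Initial replicate 2 is the library with the high share of 10 genes; its floor, the normalised count of 6 recovered counts, was 19.3, so a level below that could not be told from 0. Sterile leaves of day 63 had 148, 136 and 215, against 575, 109 and 393 in controls, and the ranges overlapped (log2 change -0.83, SE 1.01, adjusted p 0.52). Sterile leaves of day 35 had 73.4, 45.5 and 53.0, against 84.2, 71.9 and 80.2 in controls (log2 change -0.48, SE 1.01, adjusted p 0.89).

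Whether the isoflavone synthase genes responded unequally was tested on the difference of their log2 values in each library. IFS2 minus IFS1 averaged 0.45 ± 0.61 in sterile leaves of day 63 and 2.83 ± 0.31 in controls (SD, n = 3 each), and the groups did not overlap. An exact permutation test of that change of -2.38, two-sided, gave p = 0.1, the smallest that 3 libraries against 3 allow, and 0.2 after Benjamini-Hochberg adjustment over 2 such tests. In Williams 82 the difference averaged 1.54 ± 0.40 in depodded leaves labelled day 64 and 0.48 ± 0.98 in controls, and -0.32 ± 1.12 in depodded leaves labelled day 76 and 2.92 ± 0.85 in controls. Over both days the change was -1.09 (exact permutation test within days, two-sided, p = 0.245 and adjusted p = 0.245, smallest possible 0.005). The sign differed between the days as labelled. By title number the depodded mean was the lower one both times: -0.32 against 0.48 in controls of day 64, and 1.54 against 2.92 in controls of day 76. The permutations were made within label days, and those by title number were not run. IFS1 and IFS2 are close copies, and no source used here says how reads matching both were counted, so each value is uncertain in that respect. The pairs DFR1 and DFR2 and ANS2 and ANS3 could not be compared, since DFR1 and ANS3 were not analysed here.

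**Figure D1:**
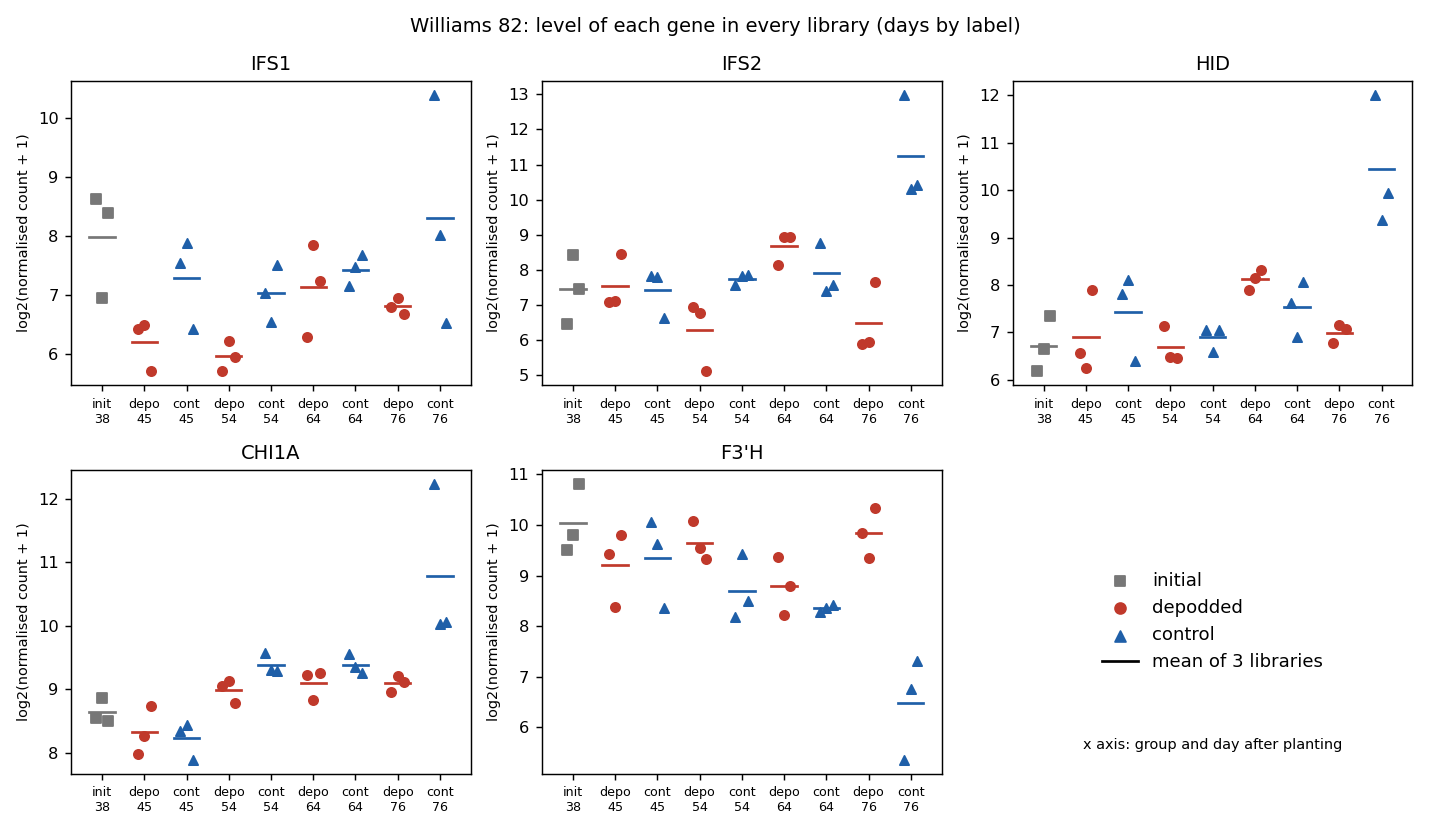
Level of IFS1, IFS2, HID, CHI1A and F3'H in each of the 27 Williams 82 libraries (y axis, log2 of normalised count + 1; x axis, group and day after planting), with the mean of 3 libraries as a bar. Controls of day 76 stand highest in IFS2, HID and CHI1A and lowest in F3'H, and their replicate 1 is the highest Williams 82 library of IFS1, IFS2, HID and CHI1A and the lowest of F3'H.

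CHI1A encodes the chalcone isomerase that supplies flavanones to all of the branches. Depodded leaves labelled day 76 had 498, 591 and 552 normalised counts, against 4820, 1042 and 1072 in controls of day 76. The groups did not overlap (log2 change -1.68, SE 0.36, limma adjusted p 0.00065), and without control replicate 1 the change was -0.95 and still called. At label day 64 depodded leaves had 595, 456 and 614, against 751, 652 and 614 in controls, with ranges that overlapped (log2 change -0.28, SE 0.36, adjusted p 0.57). The average over both days was -0.98 (SE 0.26, adjusted p 0.0050), and by title number the change against day 76 controls was -1.67 (SE 0.36, adjusted p 0.0013), or -0.94 without control replicate 1.

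In sterile leaves of day 63, CHI1A had 591, 842 and 1712 normalised counts, against 3332, 1190 and 2480 in controls. The ranges overlapped, as sterile replicate 3 was above control replicate 2. The log2 change was -1.18 (SE 0.39, limma adjusted p 0.020), and the call was lost without control replicate 1 or 3 or sterile replicate 1 or 2, with adjusted p-values up to 0.10. At day 35 sterile leaves had 793, 568 and 700, against 565, 619 and 610 in controls (log2 change 0.19, SE 0.39, adjusted p 0.88).

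With age, CHI1A was the only tested member that limma called at an early step in Williams 82. Its mean was 303 ± 59 in controls of day 45, 671 ± 76 at day 54 and 672 ± 71 at day 64 (SD, n = 3 each), and day 54 against day 45 was called (log2 change 1.16, SE 0.36, limma adjusted p 0.020). That call was lost without day 45 replicate 3 or day 54 replicate 1. It rose again in controls of day 76 against day 64 (log2 change 1.39, SE 0.36, adjusted p 0.0052), a change of 0.66 without day 76 replicate 1 and one that a fit of these groups alone did not call (adjusted p 0.090). Against initial leaves, which had 373, 465 and 364, the change was 2.13 (SE 0.36, adjusted p 4.8e-05), or 1.41 without replicate 1. In T295H controls of day 63 it had 3332, 1190 and 2480, against 482, 348 and 740 in initial leaves, means of 2334 ± 1078 and 523 ± 199.5 (SD, n = 3 each; limma adjusted p 0.00021).

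F3'H encodes the hydroxylase that adds a B-ring hydroxyl group, as in quercetin and cyanidin. Wherever it was called together with IFS2, HID and CHI1A, its change had the opposite sign. Depodded leaves labelled day 76 had 916, 651 and 1293 normalised counts, against 39.9, 108 and 157 in controls of day 76. The groups lay far apart, with a log2 change of 3.37 (SE 0.49, limma adjusted p 1.1e-05) that ranged from 2.81 to 3.79 when each of the 6 libraries was left out. Depodded leaves labelled day 64 had 656, 296 and 441, against 308, 327 and 343 in controls, and the ranges overlapped (log2 change 0.44, SE 0.49, adjusted p 0.52). Averaged over both days the change was 1.90 (SE 0.35, adjusted p 0.00023). By title number the change against day 76 controls was 2.32 (SE 0.49, adjusted p 0.0011).

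Sterile leaves of day 63 had 403, 455 and 179 normalised counts of F3'H, against 30.5, 89.1 and 43.9 in controls. All sterile libraries were above all controls (log2 change 2.67, SE 0.46, limma adjusted p 0.00020). At day 35 sterile leaves had 140, 299 and 135, against 212, 103 and 102 in controls, with overlapping ranges (log2 change 0.44, SE 0.46, adjusted p 0.74). The difference of both effects was 2.23 (SE 0.65, adjusted p 0.018), a call that was lost without control replicate 1 of day 35 or of day 63 (adjusted p up to 0.054).

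Over the Williams 82 time course, F3'H stood lower in controls at each sampling: 1142 ± 582 normalised counts in initial leaves, then 726 ± 370 at day 45, 446 ± 213 at day 54, 326 ± 18 at day 64 and 101 ± 59 at day 76 (SD, n = 3 each). Of these steps that from day 64 to day 76 was called (log2 change -1.88, SE 0.49, limma adjusted p 0.0055), and without day 76 replicate 1 it was not (adjusted p 0.055). Day 76 against initial leaves gave a log2 change of -3.57 (SE 0.49, adjusted p 3.9e-06). In T295H, F3'H was lower in day 63 controls than in initial leaves, which had 266, 135 and 153 (log2 change -1.82, SE 0.46, adjusted p 0.0027), and than in controls of day 35 (log2 change -1.39, SE 0.46, adjusted p 0.016, lost without replicate 1 of either control group).

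**Figure D2:**
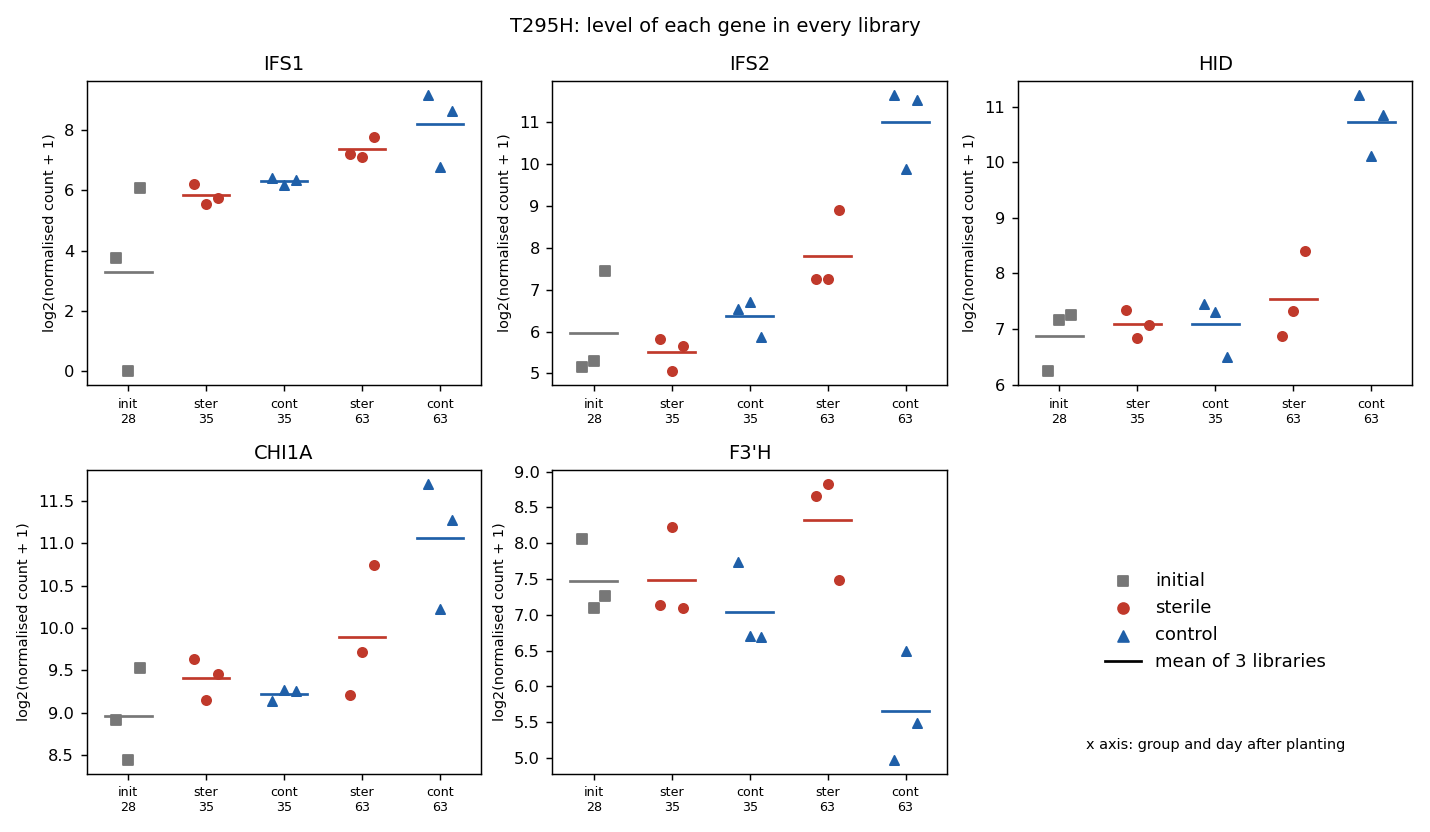
Level of IFS1, IFS2, HID, CHI1A and F3'H in each of the 15 T295H libraries (y axis, log2 of normalised count + 1; x axis, group and day after planting), with the mean of 3 libraries as a bar. Sterile leaves of day 63 do not overlap controls of day 63 in IFS2, HID and F3'H, and overlap them in IFS1 and CHI1A. The share of all genes without such overlap was not computed.

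Counting the steps between control groups places these changes in time. In Williams 82, controls of day 45 against initial leaves gave 0 of 5 calls (5.79% of all genes), with 0 at an unadjusted p under 0.05 and 0 by edgeR and DESeq2. Day 54 against day 45 gave 1 higher, CHI1A (12.4% of all genes), and 0 lower (14.9%). Day 64 against day 54 gave 0 (0.185% of all genes), again with 0 at an unadjusted p under 0.05 and by the other tools. Day 76 against day 64 gave 3 higher (15.9% of all genes) and 1 lower (17%), and day 76 against initial leaves 3 higher (20.1%) and 1 lower (23.7%).

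In T295H, controls of day 35 against initial leaves gave 0 of 5 calls (11.6% of all genes), with 1 gene, IFS1, at an unadjusted p under 0.05 (log2 change 3.04, SE 1.01, limma adjusted p 0.063) and 0 by edgeR and DESeq2. Day 63 against day 35 gave 3 higher (29.3% of all genes) and F3'H lower (31.1%), and day 63 against initial leaves 4 higher (31.3%) and F3'H lower (32.1%). Rises of IFS2, HID and CHI1A were thus called by limma at the last day of both control series. For CHI1A a rise was also called at day 54 of Williams 82. At the last step of each control series, edgeR and DESeq2 called 5 of 5 members, IFS1 included.

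Sink-limited leaves were also set against leaves of the start, in comparisons chosen after the values were seen. In late depodded leaves of both days against initial leaves, limma called 0 of 5 members (40.5% of all genes), with 0 at an unadjusted p under 0.05 and 0 by edgeR and DESeq2. In sterile leaves of day 63 against initial leaves, IFS1 and IFS2 were higher (16.6% of all genes) and no member was lower (17.4%). The change was 4.08 for IFS1 (SE 1.01, limma adjusted p 0.0059; 2.44 without initial replicate 2 and 5.49 without initial replicate 3). For IFS2 it was 1.84 (SE 0.60, adjusted p 0.027; 2.58 without initial replicate 3), a call lost without initial replicate 1 or 2 or sterile replicate 3. Between the late depodded groups, IFS2 was lower in libraries labelled day 76 than in those labelled day 64 (log2 change -2.18, SE 0.66, adjusted p 0.017, against 14.5% of all genes), and no member was higher (13.1%). That call was lost when 4 of the 6 libraries were left out in turn.

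Ordered by group mean, the Williams 82 groups separated at few places. The share of all genes with such separations was not computed in either line. For IFS2 and HID the gap between controls of day 76 (means 3578 and 1922) and the next group, depodded leaves labelled day 64 (417 and 278), was the only one between neighbours whose libraries did not overlap. Without replicate 1 the means of the day 76 controls were 1306 for IFS2, 820 for HID and 1057 for CHI1A. For CHI1A there was also a gap between controls of day 54 (671) and depodded leaves labelled day 64 (555), below the one between controls of day 76 (2311) and of day 64 (672). F3'H had 1 gap, between controls of day 64 (326) and controls of day 76 (101), the lowest group. IFS1 had 1, between depodded leaves labelled day 76 (111) and of day 45 (75.0).

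In T295H, too, the last controls had the highest mean of IFS1, IFS2, HID and CHI1A and the lowest of F3'H. Other places in the order differed between the lines. Initial leaves, for example, had the lowest mean of IFS1 in T295H (26.4) but not in Williams 82 (283). IFS2 had gaps below controls of day 63 (2374) and below sterile leaves of day 63 (261), which stood above controls of day 35 (84.6). HID had 1 gap, between controls of day 63 (1776) and sterile leaves of day 63 (204). F3'H had 1, between controls of day 35 (139) and controls of day 63 (54.5). IFS1 had 1, between sterile leaves of day 63 (167) and controls of day 35 (78.7), and CHI1A had none.

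Over the 27 Williams 82 libraries Pearson's r of log2 values was 0.89 for IFS2 and HID, 0.75 for IFS2 and CHI1A, 0.79 for CHI1A and HID, and 0.55 for IFS1 and IFS2. HID was the second of 29207 genes in likeness to IFS2, and IFS2 the third in likeness to HID; in T295H the ranks among 29369 genes were 167 and 119. F3'H ran the other way, with r of -0.71 with IFS2, -0.73 with CHI1A and -0.70 with HID. These libraries share groups, and with each group's mean taken out r was 0.72 for IFS2 and HID, 0.31 for IFS1 and IFS2 and 0.03 for F3'H and IFS2. Over the 15 T295H libraries r was 0.95 for IFS2 and HID and -0.65 for F3'H and IFS2, and 0.81 and -0.64 with group means taken out. IFS1 had r of 0.71 with IFS2 and 0.57 with HID there, and 0.70 and 0.22 with group means taken out.

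The genes most like each member over the 27 Williams 82 libraries were found among all genes tested, and the 4 members with the highest r are given. They were Glyma.15G062500 for CHI1A (r 0.94, and 0.89 over the T295H libraries), Glyma.08G022900 for IFS2 (0.90 and 0.95), Glyma.08G118200 for HID (0.90 and 0.89) and Glyma.10G104700 for F3'H (0.90 and 0.73). The files give no names for these IDs. In leaf RNA of this kind, fewer cells of a type and less RNA per cell cannot be told apart, which holds for each level and change given here.

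**Figure D3:**
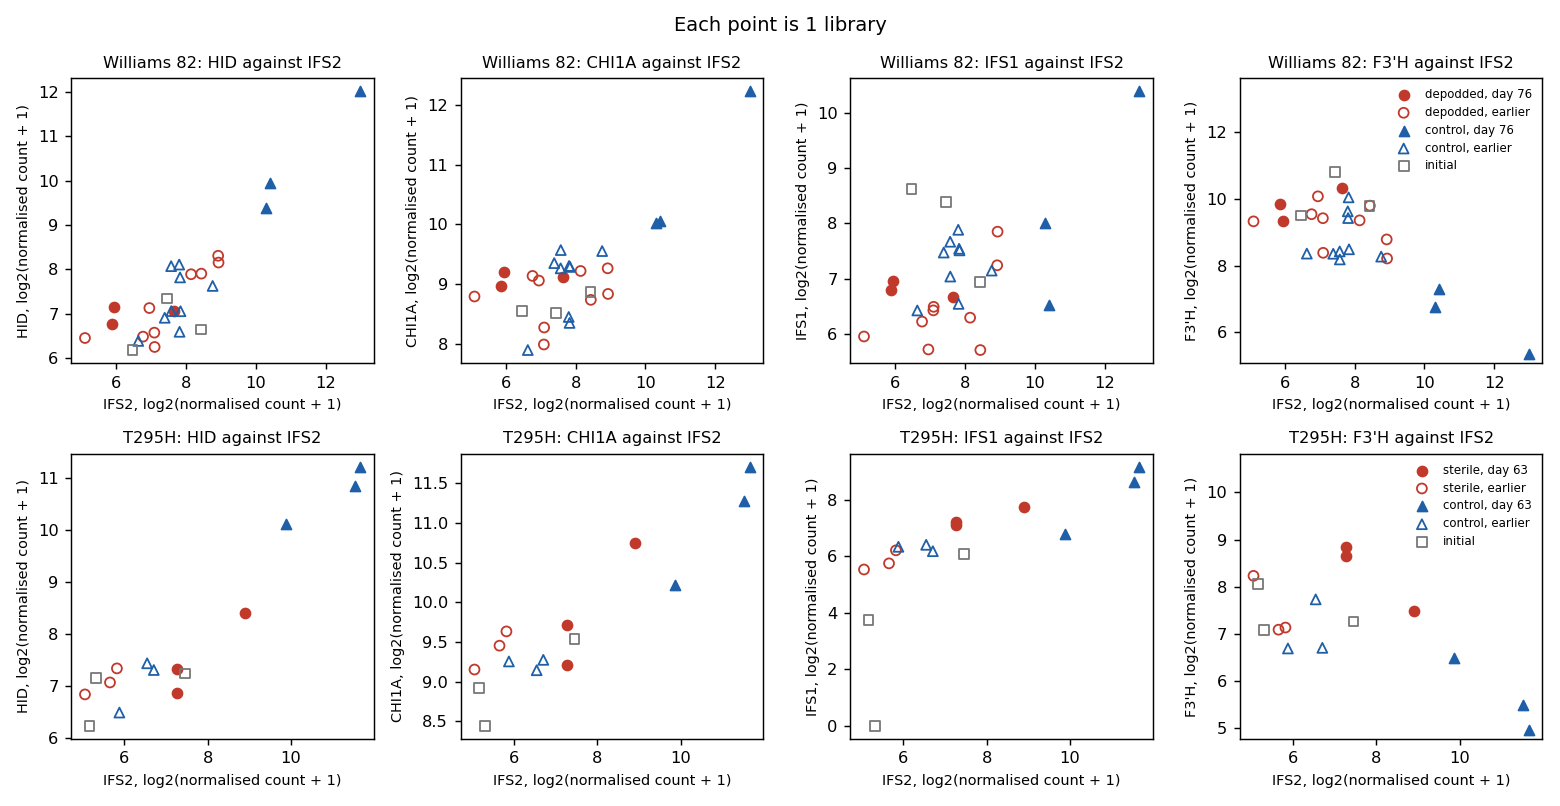
HID, CHI1A, IFS1 and F3'H (y axes) against IFS2 (x axes), log2 of normalised count + 1, in 27 Williams 82 libraries (upper row) and 15 T295H libraries (lower row), with the last day filled. Controls of the last day lie at the high end of IFS2, together with high HID and CHI1A and low F3'H.

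The anthocyanin genes had few counts in all groups. F3'5'H, the hydroxylase of the delphinidin branch, had 138 recovered counts in 27 Williams 82 libraries, with 6 libraries at 0, and 66 in 15 T295H libraries, with 5 at 0. Its normalised count was 0 to 19.6 in Williams 82 and 0 to 21.9 in T295H. Nearly all recovered counts are even, so a count is not an independent observation, and a normalised count under a floor of 3 pairs of counts (3.80 to 11.9 in Williams 82 libraries, 4.22 to 19.3 in T295H libraries) could not be told from 0. No member of this branch reached the mean of 10 needed for the test, and adjusted p-values given for them are from a fit without that filter. There, limma's moderated F-test over groups passed for DFR2 and ANS2 in T295H (adjusted p 0.027 and 0.022). It did not pass for F3'5'H in T295H (0.51), or for F3'5'H and DFR2 in Williams 82 (0.26 and 0.20). The share of all genes was not computed for that fit. In depodded leaves of day 54 F3'5'H had 11.3, 19.6 and 3.93 normalised counts, against 3.72, 3.18 and 1.27 in controls, without overlap (limma adjusted p 0.52). Depodded replicate 3 and all of these controls lay under their floors. At label day 64 F3'5'H had 0, 1.85 and 1.63, against 1.92, 3.97 and 9.97 in controls, also without overlap (limma adjusted p 0.31). All of these depodded values lay under their floors (4.90 to 5.56), as did control replicates 1 and 2 (floors 5.77 and 5.95). No difference was therefore read from them.

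The other groups of F3'5'H overlapped. Depodded leaves had 2.29, 0 and 12.8 at day 45, against 7.87, 1.79 and 15.6 in controls, and 0, 0 and 9.19 at label day 76, against 0, 0 and 10.1 in controls. Sterile leaves had 0, 3.79 and 5.48 at day 35, against 0, 1.75 and 0 in controls, and 1.61, 4.98 and 2.81 at day 63, against 6.09, 21.9 and 0 in controls.

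DFR2, which reduces dihydroflavonols on the way to anthocyanins, had 250 recovered counts in Williams 82, with 5 libraries at 0, and 92 in T295H, with 2 at 0. In Williams 82 it had 19.4, 19.6 and 15.7 normalised counts in depodded leaves of day 54, against 7.45, 11.1 and 3.80 in controls, and these groups did not overlap (limma adjusted p 0.68). At day 45 it had 9.18, 0 and 20.5 in depodded leaves, against 19.7, 5.38 and 35.7 in controls, and the ranges overlapped, as they did at label day 64 (3.69, 0 and 1.63, against 7.70, 0 and 19.9 in controls) and label day 76 (1.64, 0 and 16.5, against 0, 1.61 and 8.42 in controls). In T295H it had 3.22, 4.98 and 1.41 in sterile leaves of day 63, against 12.2, 37.0 and 3.51 in controls, and the ranges overlapped (adjusted p 0.084). The mean of these controls was 17.6 ± 17.4, against 3.52 ± 3.04 in controls of day 35 (SD, n = 3 each). That step was not called (log2 change 1.74, limma adjusted p 0.073).

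ANS2, the synthase that yields the coloured anthocyanidins, had values in T295H only: 26 recovered counts in all, with 9 of 15 libraries at 0. In sterile leaves of day 63 its normalised count was 1.61, 0 and 1.41, against 2.03, 11.8 and 3.51 in controls, and the ranges did not overlap. The counts behind them were 4 in the sterile libraries and 20 in the controls, and at day 35 both groups had 0 counts. The controls' mean of 5.77 was 2.77 without replicate 2, and the values of both other controls lay under their floors of 6.09 and 5.27, so no difference was read from them. In the fit without the filter, ANS2 was called higher in controls of day 63 than of day 35 (log2 change 2.48, limma adjusted p 0.0055). It was also called higher there than in initial leaves (1.88, limma adjusted p 0.025). Both calls rest on the same few counts. DFR1, ANS3 and, in Williams 82, ANS2 were not analysed here.

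In T295H controls of day 63, replicate 2 had the highest normalised count of its group in F3'H, F3'5'H, DFR2 and ANS2 and the lowest in IFS1, IFS2, HID and CHI1A. In Williams 82 controls of day 76, replicate 1 had the highest value of its group in IFS1, IFS2, HID and CHI1A and the lowest in F3'H. The labels give these libraries no other distinction.

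**Figure D4:**
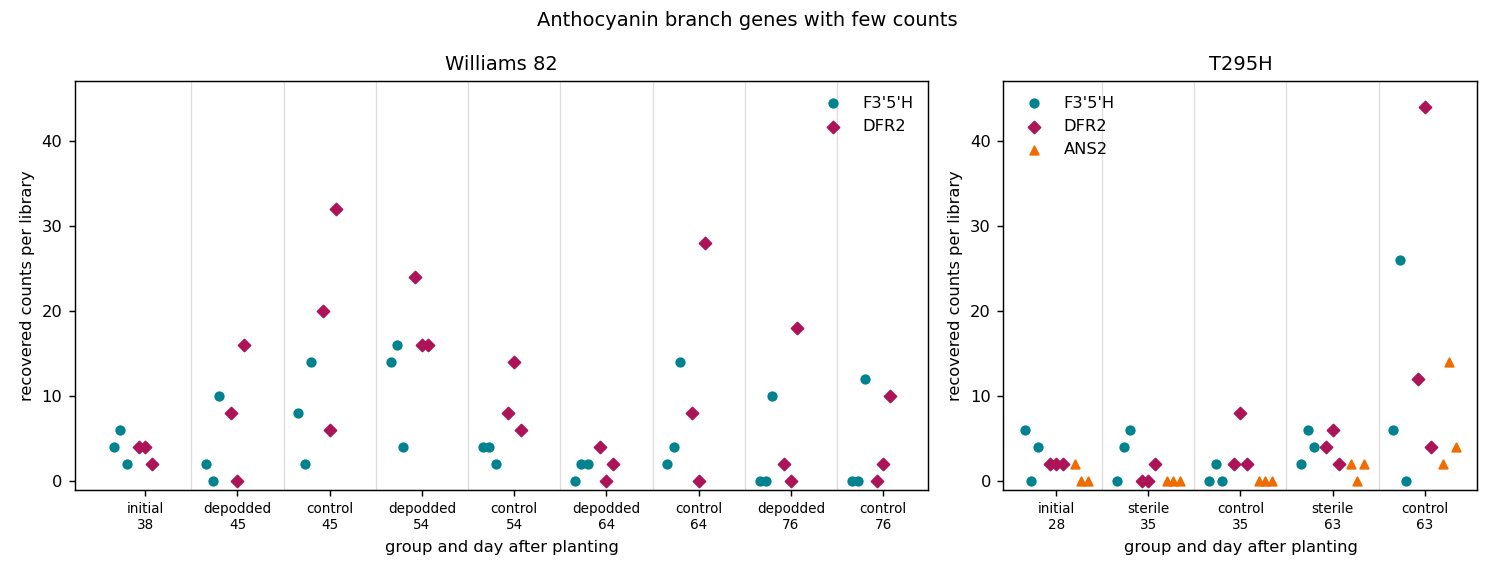
Recovered counts per library (y axis) of F3'5'H and DFR2 in the Williams 82 groups and of F3'5'H, DFR2 and ANS2 in the T295H groups (x axis, group and day after planting). The highest counts in T295H are those of replicate 2 of the day 63 controls.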

How the data were processed

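RNA sequencing of 42 soybean leaf libraries gave 1 deposited table per line. The authors' deposited values are a signal per gene and library; within a column all values are multiples of 1 step, as counts divided by a size factor would be, and division by that step gave counts whole within 0.01 for 100% of values. Between 98.8% and 99.2% of recovered counts above 0 in each library were even, so floors use pairs of counts and cover counting error only. Bowtie2 and DESeq2 are named, without versions, per the submitters' processing notes. Genome build, annotation and strand use: not given in the sources used here.

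Tests used limma 3.58.1 in R 4.3.3 (lmFit, contrasts.fit, eBayes with trend) on log2(normalised count + 1), two-sided, over genes with a mean of at least 10 (29208 of 38177 in Williams 82, 29370 of 37403 in T295H), with Benjamini-Hochberg adjustment over all genes tested and all groups of a line in 1 fit. Such changes understate those of low genes. Each line was tested within its own table. Alternatives were a pseudocount of 5, a minimum mean of 50, no filter, only the groups compared, no initial libraries, a replicate block, edgeR 4.0.16 (quasi-likelihood) and DESeq2 1.42.0 on recovered counts, edgeR on counts divided by 2, days by title number, and leaving out each library. Steps were also run on simulated counts, with a spread smaller than that of IFS1 and IFS2 in day 76 controls. That run therefore does not give the error rate in these data. The naming rule takes all 10 genes, and those under the filter are described by their values; the likeness rule names 4 further IDs. The genes, lists and tests were chosen with earlier results of these data known. Of the RefSeq table, 0 IDs matched those of the files, so planned lists by product name were not used.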

Additional observations from a re-analysis of the deposited data

Results flagged for a closer look

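By limma's test of the difference itself, 2 genes responded to sterility unequally at days 63 and 35. For HID, the isoflavone dehydratase, the log2 change of sterile against control leaves at day 63 minus that at day 35 was -3.20 (SE 0.55, adjusted p 0.00059). Every sterile library was below every control at day 63 and the ranges overlapped at day 35. For F3'H the difference was 2.23 (SE 0.65, adjusted p 0.018), with every sterile library above every control at day 63 and overlapping ranges at day 35. Leaving out each of the 12 libraries gave -3.63 to -2.87 for HID and 1.89 to 2.65 for F3'H; HID was called each time, and the F3'H call was lost without control replicate 1 of day 35 or of day 63 (limma adjusted p up to 0.054). In sterile leaves the 10 most abundant genes held 6.31% to 7.46% of counts at day 63 and 7.55% to 8.67% at day 35, and in controls 4.22% to 5.07% at day 63 and 6.30% to 6.68% at day 35; their part in the difference was not tested.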

How the results depend on the processing

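Counts of members called stayed within 1.5 times of the reported count in 286 of 296 recomputed values, and of 1705 recomputed log2 changes of single genes, 32 lost a call, 45 gained one and 0 with a call turned sign. At day 54, a fit of only the groups compared called 1 member (IFS1, lower); at label day 64, days by title number called 1 (F3'H). For the late minus early depodding effect, DESeq2 called 1 and leaving out each library 0 to 1. For the sterility effect of day 63 minus day 35, leaving out each library gave 1 to 4. The cause of these changes was not tested. Libraries with the same replicate number did not deviate together throughout (r from -0.19 to 0.25), so the numbers were not taken as pairs. With a replicate block that difference called 4 members in place of 2 (HID, IFS2 and CHI1A lower, F3'H higher), depodded against control at label day 76 gave 4 as without it, and no other count moved by over 1.5 times. Shares of all genes were computed for the main limma fits only. Counts of members called in other settings therefore have no such share beside them, and whether they exceed the general rate was not tested. Depth limits the anthocyanin genes, which had at most 44 recovered counts in a library.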
